A study of Mus musculus with 6 samples.

Results

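The genes described here encode 5 integrin subunits (Itga4, Itgb7, Itgal, Itgb2 and Itgb1) and 4 chemokine receptors (Ccr2, Ccr4, Ccr8 and Cxcr6) that lymphocytes use to enter, or stay in, the lung. They were chosen by name, and all 9 were among the 18122 genes of the deposited table and among the 13691 genes tested. The cells were group 2 innate lymphoid cells (ILC2s), that is, lymphocytes without antigen receptors that release type 2 cytokines. They were sorted from mouse lung and cultured, after which their RNA was sequenced. There were 3 libraries labelled WT, of genotype BALB/C BYJ, and 3 labelled ICOS KO, of genotype C.129S4-Icostm1Shr/J, a strain that carries a targeted allele of the co-stimulatory receptor gene Icos. The series' text speaks of duplicates, while 3 libraries of each group were used here. The labels do not give the age, sex or treatment of the mice, nor what the cells were cultured with, nor whether a group's libraries stem from different mice or cultures. The p-values therefore rest on a spread between libraries that may be technical only. Unless stated otherwise, values with ± are the mean and SD of a group's 3 libraries (n = 3), in CPM normalised by TMM, with WT given first. The ± of a log2 fold change is always the SE of the edgeR fit. Strain and Icos allele differ together between the groups and cannot be told apart.

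Integrins are pairs of an alpha and a beta chain that hold a cell to other cells or to matrix. The alpha 4 chain of Itga4 pairs either with the beta 7 chain of Itgb7, which gives a receptor for MAdCAM1, or with the beta 1 chain of Itgb1, which gives VLA4, a receptor for VCAM1 and fibronectin. The alpha L chain of Itgal pairs with the beta 2 chain of Itgb2 as LFA1, which binds ICAM proteins. Chemokine receptors steer the cell towards a ligand and switch integrins to their binding state: CCR2 responds to CCL2, CCR4 to CCL17 and CCL22, CCR8 to CCL1 and CCL8, and CXCR6 to the membrane-bound CXCL16.

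Across the series, libraries held 13738062 to 18736474 estimated counts. Icos stood at 434, 462 and 502 CPM in WT and 140, 170 and 161 CPM in ICOS KO (log2 fold change -1.57 ± 0.10, SE; edgeR adjusted p = 1.27e-05), and whether its remaining reads lie outside the targeted part was not analysed here. All 12 ILC2 marker genes were tested, of which 3 were called higher (Areg, Klrg1 and Il1rl1) and 1 lower (Rora) in ICOS KO. Gata3 was not called (edgeR adjusted p = 0.227), although all its ICOS KO libraries lay below all WT libraries. Its group mean was 868 CPM in WT and 753 CPM in ICOS KO. For Il5 the WT mean was 6460 CPM and the ICOS KO mean 6049 CPM, with overlapping groups and no call. Levels within the T cell list were uneven. Cd3d and Trac stood at or below 1.71 CPM in every library and Cd3e at 0.752 to 10.5 CPM. Over the same libraries Cd3g stood at 39.9 to 71.6 CPM, Trbc1 at 55.2 to 143 CPM and Trbc2 at 140 to 256.5 CPM. Cd4, Cd8a, Cd8b1 and Cd5 were too low to be tested. ICOS KO replicate 2 lay farthest out on the first principal component (54.71, where the other ICOS KO libraries had 27.51 and 9.33). T cell markers summed to 246 to 299.9 CPM in WT and 367 to 469 CPM in ICOS KO; of 6 tested, Trbc1 and Trbc2 were higher and Cd3e lower, and Cd8a and Cd8b1 were at 0 in ICOS KO. NK cell and ILC1 markers summed to 147 to 191 CPM and 429.8 to 693 CPM, mostly from Gzma, which was called higher, while Ncr1 and Tbx21 were called lower. Ncr1 stood at 1.42 ± 0.215 and 0.0247 ± 0.0429 CPM and Tbx21 at 2.07 ± 0.874 and 0.179 ± 0.1955 CPM. Since 3 counts make 0.16 to 0.22 CPM, the ICOS KO levels of Ncr1 and Tbx21 rest on few reads. Of the genes called so far, Tbx21 lost its call under 6 of 16 alternatives (adjusted p up to 0.201), Cd3e under 4 of 17 (0.143), Trbc2 under 4 of 17 (0.0799) and Rora under 3 of 17 (0.104), most of them fits that lacked 1 WT library or ICOS KO replicate 3. No alternative was run on Il1rl1, which lay just under the threshold (edgeR adjusted p = 0.0495). B cell markers summed to 910.2 to 1365 CPM and 1515 to 1529 CPM, mostly from Ighm. Of the 6 B cell genes tested only Cd79b was called by edgeR, as higher, a call lost under 8 of 17 alternatives (adjusted p up to 0.199). Ighm (edgeR adjusted p = 0.109) was called higher with the replicate number as a block (0.0367), in the absence of WT replicate 3 (0.0313), by DESeq2 (0.0375) and by voom with quality weights (0.0343). Eosinophil and neutrophil markers summed to 8.92 to 86.3 CPM in WT and 6.84 to 13.2 CPM in ICOS KO (none of 7 called by edgeR). Mpo, Prg2 and Epx were highest in WT replicate 2 (33.5, 24.66 and 17.35 CPM). In WT replicate 1 they stood at 3.20, 8.39 and 7.24 CPM and in WT replicate 3 at 1.97, 0.131 and 0 CPM. Epx and Elane were at 0 in ICOS KO. Mpo (edgeR adjusted p = 0.0909) was called lower without ICOS KO replicate 1 (0.0278). Epithelial, endothelial and stromal markers summed to 145 to 234 CPM and 144 to 262 CPM (1 of 6 called, Epcam, as higher, with Col1a2 at 0 in WT). The part of all such cells in the results was not tested.

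Of the 9 genes, 2 were lower in ICOS KO (Ccr2 and Itgb1), none was higher and 7 were not called at an edgeR adjusted p of 0.05. Over all genes tested 3.29% were called, 2.01% as lower and 1.29% as higher in ICOS KO. The log2 fold changes of the 9 (ICOS KO over WT) had a median of -0.23, with 6 below 0 and 3 above, beside a median of -0.004 over all genes tested. In 4 of the 9 (Itgb1, Ccr2, Ccr4 and Ccr8) every ICOS KO library lay below every WT library, as did 12.5% of all genes tested, while 24.4% were apart in either direction. In RNA of a whole culture, fewer cells of a type and less RNA per cell cannot be told apart. Both calls lay close to the threshold and were lost when single libraries were left out, as given with each gene below.

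The sequences before the start are shown for both called genes and, for comparison, for the other beta partner of alpha 4 (Itgb7) and for Ccr1, the neighbour of Ccr2 that moved the other way. Each is the 250 bases before the RefSeq start in the GRCm38.p6 reference (a C57BL/6J genome, not that of these mice), written 5' to 3' on the gene's strand. Capitals mark matches on either strand to 3 motifs. That of the GATA factors, among them the ILC2 factor GATA3, was searched as AGATAA and also in the form TGATAA. That of the RUNX factors was TGTGGT, and that of PU.1, a factor of myeloid and B cells, was GAGGAA. The Itgb1 window lies on chromosome 8 (128685404 to 128685653, plus strand), that of Itgb7 on chromosome 15 (102231936 to 102232185, minus strand), that of Ccr2 on chromosome 9 (124101933 to 124102182, plus strand) and that of Ccr1 on chromosome 9 (123968693 to 123968942, minus strand). The GENCODE M21 annotation, from which the gene positions given here come, starts Ccr2 farther upstream, so that 233 of the 250 bases of its window, the GATA match among them, lie inside the annotated gene, as do 9 bases of the Itgb7 window and none of the other pair.
Itgb1: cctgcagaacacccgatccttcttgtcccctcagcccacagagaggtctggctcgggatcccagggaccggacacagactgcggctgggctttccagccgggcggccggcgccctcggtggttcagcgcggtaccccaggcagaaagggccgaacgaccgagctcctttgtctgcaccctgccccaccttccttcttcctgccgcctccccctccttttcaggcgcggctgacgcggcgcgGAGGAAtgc
Itgb7: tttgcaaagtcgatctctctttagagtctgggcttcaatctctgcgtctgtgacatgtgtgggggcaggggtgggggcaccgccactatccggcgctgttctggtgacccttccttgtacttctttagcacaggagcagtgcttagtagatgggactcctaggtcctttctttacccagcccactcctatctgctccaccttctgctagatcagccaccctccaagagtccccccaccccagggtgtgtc
Ccr2: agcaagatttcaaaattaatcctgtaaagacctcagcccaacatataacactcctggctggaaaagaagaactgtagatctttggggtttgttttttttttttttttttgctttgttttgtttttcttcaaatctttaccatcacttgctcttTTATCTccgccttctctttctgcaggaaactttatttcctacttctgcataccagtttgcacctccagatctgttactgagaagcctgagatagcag
Ccr1: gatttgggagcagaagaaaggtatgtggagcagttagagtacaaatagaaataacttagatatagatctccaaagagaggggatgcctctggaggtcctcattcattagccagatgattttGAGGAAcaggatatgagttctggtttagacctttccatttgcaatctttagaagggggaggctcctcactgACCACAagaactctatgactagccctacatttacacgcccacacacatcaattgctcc
The Itgb1 window was 68.0% G or C with 21 CpG pairs, that of Itgb7 56.0% with 5, and those of Ccr2 and Ccr1 37.2% and 43.6% with 1 each. Of the 9 genes, 7 matched this table, all but Itgal and Itgb2. Among these 7, the GATA letters were found in 2 windows (Ccr2 and Ccr8), the RUNX letters in 2 (Itga4 and Cxcr6) and the PU.1 letters in 1 (Itgb1). Of the windows not shown, that of Ccr4 lay inside the annotated gene with all 250 bases. Those of Ccr8 and Cxcr6 did so with 19 and 2 bases, and that of Itga4 with none. Of all 32851 windows searched, 16.6% held the GATA letters, 14% the RUNX letters and 23.3% the PU.1 letters. The 2 called genes shared none of these motifs in the window.

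**Figure D1:**
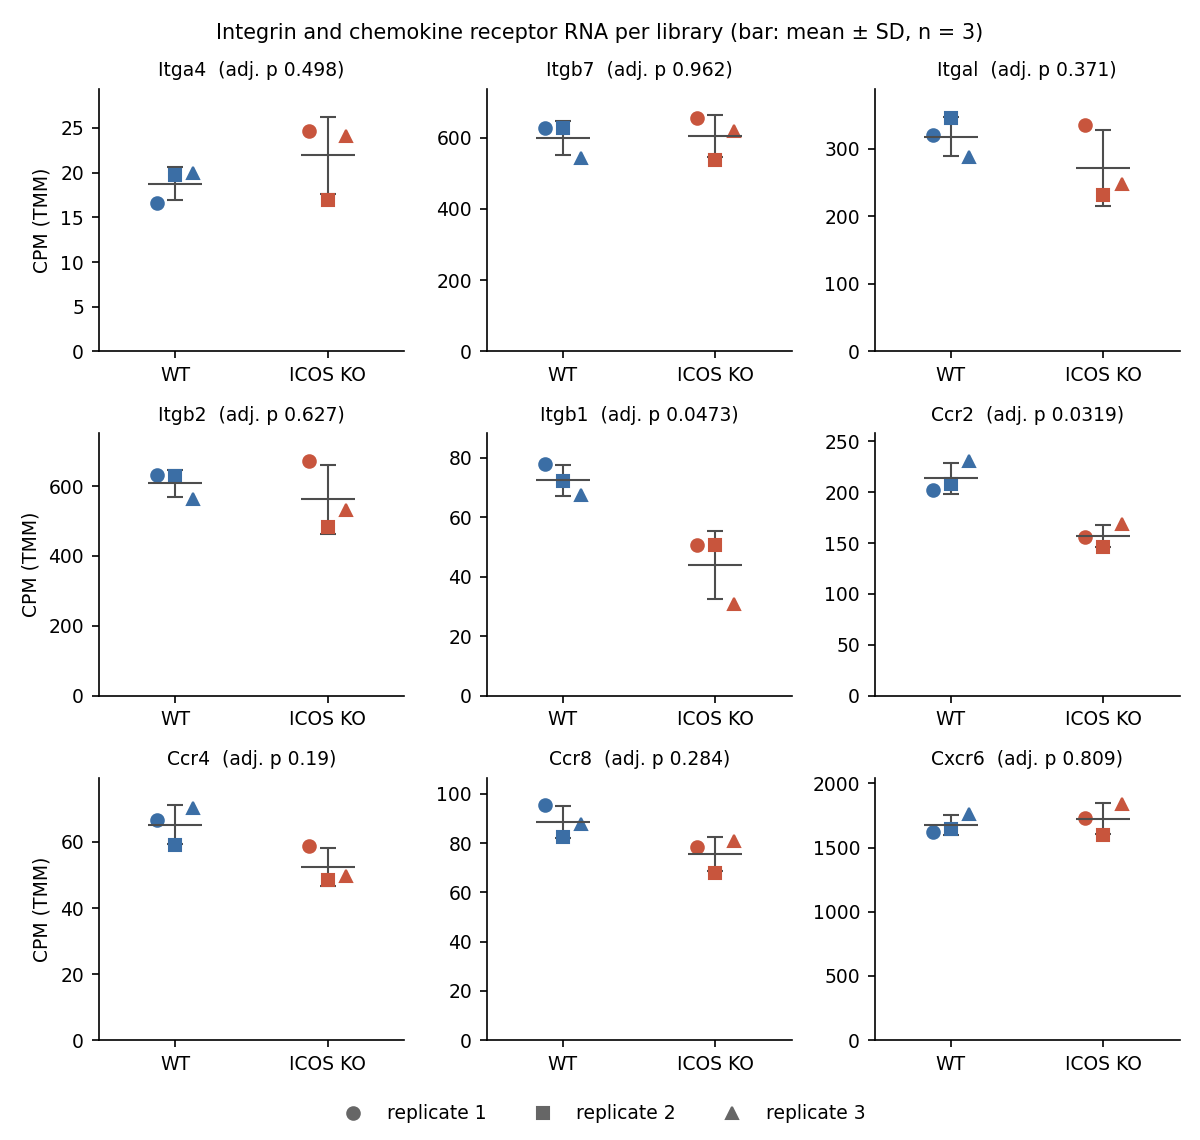
Level of each of the 9 genes (TMM-normalised CPM, axes from 0) in the 3 WT and 3 ICOS KO libraries; symbols are replicates and bars the mean ± SD, with edgeR's adjusted p in each title. The groups are apart for Itgb1, Ccr2, Ccr4 and Ccr8, by less than 0.1 CPM for Ccr4, and ICOS KO replicate 3 is the lowest point for Itgb1.

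Levels of different genes were compared per kilobase of exon (CPM per kb, with all annotated exons of a gene counted). In WT the order ran from Cxcr6 at 868 ± 39.9 through Itgb7 at 216 ± 17.4, Itgb2 at 199 ± 12.6, Ccr8 at 75.4 ± 5.62, Itgal at 48.3 ± 4.41, Ccr2 at 31.6 ± 2.19, Ccr4 at 21.1 ± 1.87 and Itgb1 at 17.8 ± 1.28 to Itga4 at 1.34 ± 0.134 CPM per kb. The ranges of the 3 WT libraries overlapped for 2 pairs of neighbours in that order, Itgb7 with Itgb2 and Ccr4 with Itgb1, and not for the others. Cxcr6 stood 4.01-fold above Itgb7, the next gene. Itga4 stood 13.2-fold below Itgb1, one of its partners, and its annotated exons of 13.98 kb lower a level given per length where the cells use a shorter transcript. The same limit applies to Ccr2, with 6.76 kb of annotated exons against 1.18 kb for Ccr8. In CPM the order of these genes was the reverse, with Ccr2 at 213.5 ± 14.8 and Ccr8 at 88.6 ± 6.60 CPM in WT. The order in ICOS KO was the same.

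Itga4 (chromosome 2, 79255426 to 79333123, GRCm38) stood at 16.6, 19.8 and 19.9 CPM in WT replicates 1, 2 and 3 and at 24.7, 17.0 and 24.1 CPM in ICOS KO replicates 1, 2 and 3. The groups overlapped, with ICOS KO replicate 2 among the WT libraries. The log2 fold change of Itga4 was 0.23 ± 0.18 (SE; 95% interval -0.16 to 0.61; edgeR adjusted p = 0.498). Itga4 was the least read of the 9, with 226 to 382 counts per library, and it overlaps Cerkl on the other strand, which stood at 2.52 ± 0.414 CPM in WT and 2.76 ± 0.996 CPM in ICOS KO.

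Itgb7 lies on chromosome 15 (102215995 to 102231944). Its transcript stood in the WT libraries at 627, 627 and 544 CPM and in the ICOS KO libraries at 655, 539 and 619 CPM. The groups overlapped throughout, and the log2 fold change was 0.01 ± 0.10 (SE; 95% interval -0.21 to 0.23; edgeR adjusted p = 0.962), and -0.051 when libraries were scaled by their totals.

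Itgb1 lies on chromosome 8 (128685654 to 128733200). The WT libraries held 77.9, 72.2 and 67.4 CPM of its transcript and the ICOS KO libraries 50.6, 50.7 and 30.9 CPM. All ICOS KO libraries lay below all WT libraries, and replicate 3 lay well below the other ICOS KO libraries. The means were 72.5 ± 5.24 and 44.1 ± 11.4 CPM in WT and ICOS KO. This is a log2 fold change of -0.72 ± 0.17 (SE; 95% interval -1.10 to -0.34; edgeR adjusted p = 0.0473), which is 1.64-fold lower in ICOS KO. Without ICOS KO replicate 3 the log2 fold change was -0.52 (adjusted p = 0.0972), and the call was also lost without WT replicate 1 (0.195), 2 (0.167) or 3 (0.0723), without filtering low counts (0.0548) and with the trend with transcript length and GC content removed (0.0509). DESeq2 gave an adjusted p of 0.00237 and voom 0.0343.

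Since both beta chains compete for alpha 4, the Itgb7 to Itgb1 ratio of counts was taken within each library, where scaling between libraries plays no part. The log2 ratio was 3.01, 3.12 and 3.01 in WT and 3.69, 3.41 and 4.32 in ICOS KO. All ICOS KO libraries lay above all WT libraries, with replicate 3 the highest and replicate 2 the nearest to WT. The mean was 3.05 ± 0.063 in WT and 3.81 ± 0.468 in ICOS KO, a difference of 0.76 on the log2 scale or 1.70-fold, with an exact two-sided permutation p of 0.1, the smallest that 3 against 3 libraries allow. Per length of exon, Itgb7 stood 12.2-fold over Itgb1 in WT and 21.4-fold in ICOS KO. The difference ran from 0.50 to 0.96 when each library was left out in turn, the lowest being that without ICOS KO replicate 3. The log2 ratio of Itga4 to the sum of Itgb7 and Itgb1 was -5.16 ± 0.235 in WT and -4.90 ± 0.190 in ICOS KO, with overlapping groups (exact permutation p = 0.2).

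**Figure D2:**
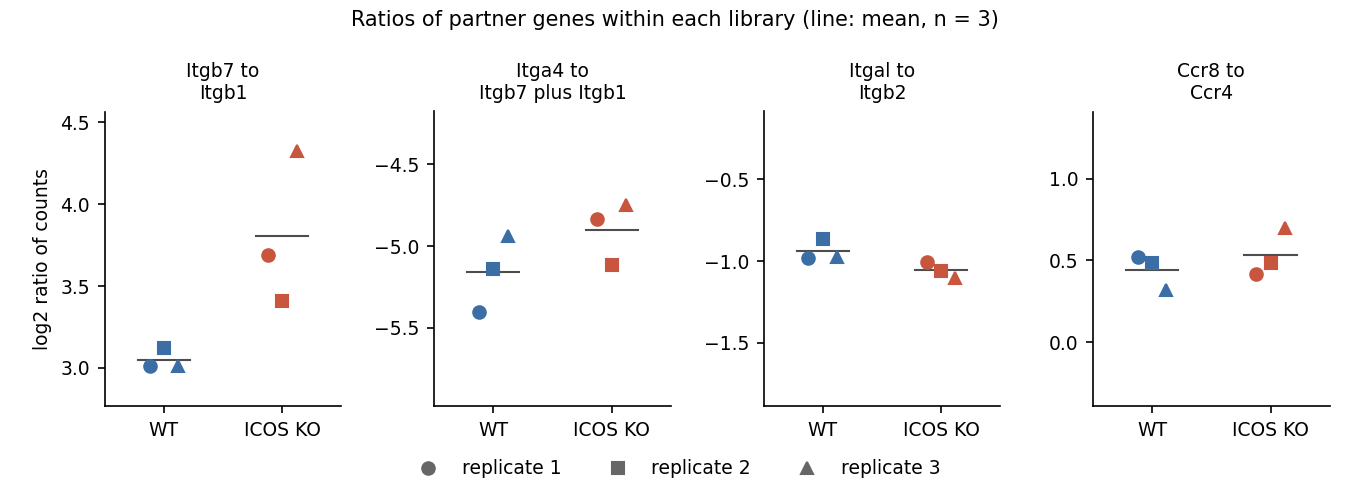
Log2 ratio of the counts of partner genes within each library (each panel spans the same number of log2 units); symbols are replicates and lines the means of 3 libraries. The Itgb7 to Itgb1 ratio is 3.01 to 3.12 in WT and 3.41 to 4.32 in ICOS KO, while the other ratios differ by 0.26 or less between the means.

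Itgal, the alpha chain gene of LFA1, lies on chromosome 7 (127296260 to 127335138). The WT libraries held 320.5, 344.5 and 286.9 CPM of its transcript and the ICOS KO libraries 335, 231 and 247 CPM. ICOS KO replicate 1 lay among the WT libraries, and replicates 2 and 3 lay below them. The log2 fold change was -0.23 ± 0.14 (SE; 95% interval -0.53 to 0.07; edgeR adjusted p = 0.371). Without ICOS KO replicate 1 it was -0.41 and was called (edgeR adjusted p = 0.0443). With the length and GC trend removed it was -0.08.

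Itgb2, the beta chain gene of LFA1, lies on chromosome 10 (77530252 to 77565708). In WT the libraries held 632, 628 and 563 CPM of its transcript and the ICOS KO libraries 672, 482 and 531 CPM, again with replicate 1 among or above the WT libraries and replicates 2 and 3 below. Its log2 fold change was -0.11 ± 0.12 (SE; 95% interval -0.37 to 0.15; edgeR adjusted p = 0.627). The Itgal to Itgb2 log2 ratio held a narrow range, from -0.98 to -0.87 in WT and from -1.11 to -1.003 in ICOS KO, without overlap. The difference of means was -0.12, or 1.08-fold (exact permutation p = 0.1, the smallest possible). ICOS KO replicates 2 and 3 also held the largest mitochondrial shares (0.62% and 0.49% of counts, against 0.26% to 0.42% in the other 4 libraries) and the highest levels of the nuclear RNA Malat1 (1687 and 1413 CPM, against 610 to 996 CPM). The part of these differences between libraries in the results was not tested.

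Of 22 other integrin subunit genes, 12 were tested, of which 2 were lower in ICOS KO, none higher and 10 not called, with a median log2 fold change of -0.29. Both called genes encode alpha chains that pair with beta 1. Itga5, of the fibronectin receptor, fell from 8.98 ± 2.10 to 3.44 ± 0.667 CPM (edgeR adjusted p = 0.0212), but was not called when WT replicate 1, WT replicate 2 or ICOS KO replicate 2 was absent (up to 0.121). Itga6, of a laminin receptor, fell from 42.9 ± 7.21 to 26.0 ± 5.03 CPM (edgeR adjusted p = 0.0473), but was not called without a filter, with the length and GC trend removed, or when WT replicate 1 or 2 or one of ICOS KO replicates 2 and 3 was absent (up to 0.23). The beta 1 partner Itga4, given above, was not called, nor were the other tested beta 1 partners of this list. Itga2 stood at 5.15 ± 1.13 and 7.88 ± 1.88 CPM, Itga3 at 5.80 ± 1.37 and 4.93 ± 0.943 CPM, and Itgav at 26.7 ± 0.409 and 27.8 ± 1.95 CPM (edgeR adjusted p = 0.25, 0.673 and 0.84). Itga7 stood at 0.835 ± 0.837 and 0.949 ± 0.784 CPM (edgeR adjusted p = 0.914). Itga1, Itga9 and Itga10 were too low to be tested. Itgb3 was the most abundant subunit of that list in CPM, with 385 ± 31.3 against 319 ± 56.5 CPM (edgeR adjusted p = 0.256, and 0.035 without ICOS KO replicate 1). The alpha partners of beta 2 that mark myeloid cells were not called either, with Itgam at 7.61 ± 1.63 and 4.71 ± 0.595 CPM and Itgax at 11.6 ± 3.07 and 6.82 ± 1.86 CPM (edgeR adjusted p = 0.185 and 0.166).

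Markers of other cells moved between the same groups. The mast cell and basophil list, with 10 of 11 genes in the table and 7 of 8 tested genes called lower, summed to 347 to 403 CPM in WT and 57.7 to 70.2 CPM in ICOS KO, with none of the 10 at 0 in all libraries of a group. The macrophage and dendritic cell list, with 11 of 12 genes in the table, summed to 149 to 205 CPM in WT and 109 to 147 CPM in ICOS KO, again with none at 0 in all libraries of a group. Of its 8 tested genes only Csf1r, the receptor of macrophage growth factor, was called by edgeR. Its means were 11.3 ± 2.19 and 3.86 ± 1.26 CPM, with an adjusted p of 0.013 that reached 0.0824 when WT replicate 1 or ICOS KO replicate 3 was left out. That list holds Itgax, and its genes Lyz2 and Cd68 were not called (edgeR adjusted p = 0.185 and 0.174), though Lyz2 was called lower with the replicate number as a block (0.0161). Mast cells and macrophages express Itgb1, and macrophages Ccr2. The part of such cells in the lower levels of Itgb1 and Ccr2 was not tested.

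**Figure D3:**
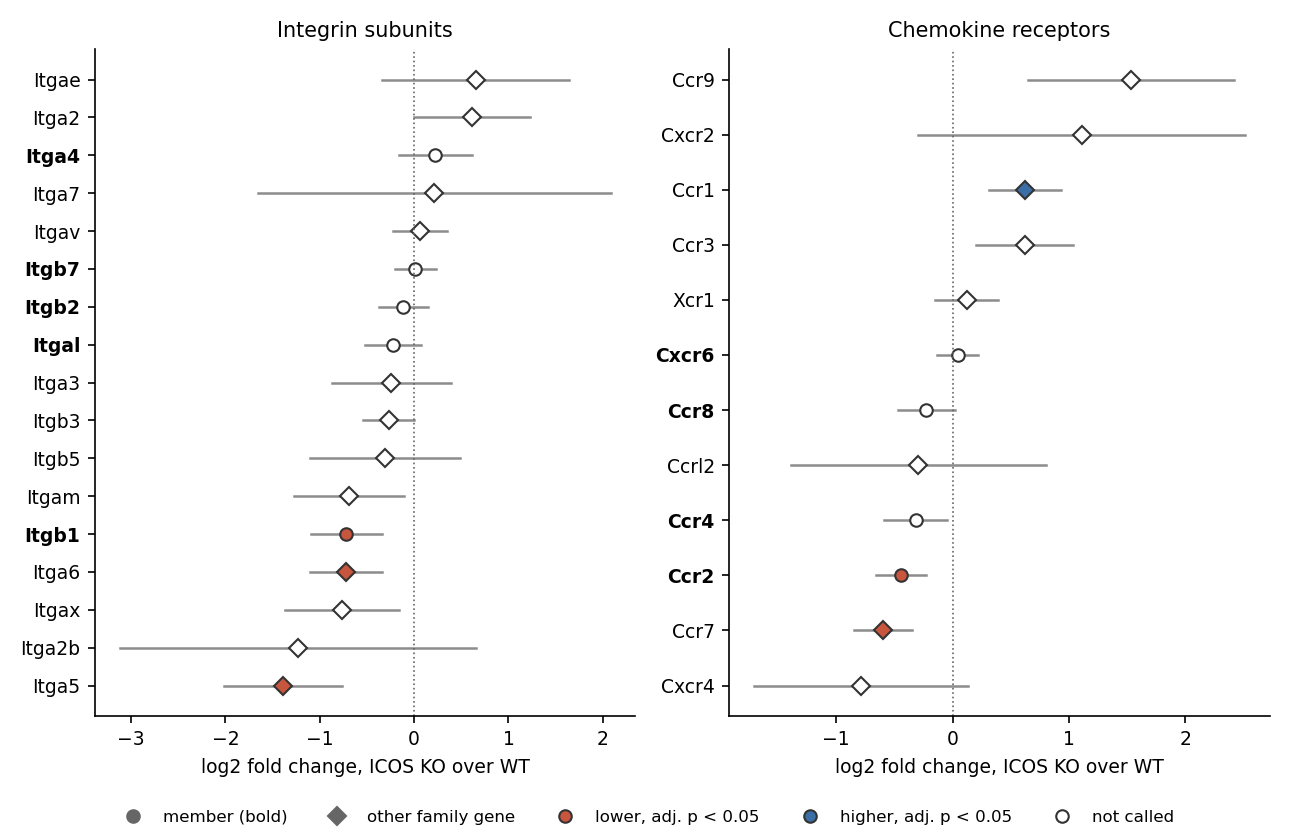
Log2 fold change (ICOS KO over WT; edgeR) of the tested integrin subunit genes (left) and chemokine receptor genes (right; 1 gene that was not called is not shown), with 95% intervals for each gene taken alone; filled symbols passed an adjusted p of 0.05. Itgb1, Itga5 and Itga6 are filled on the left and Ccr2, Ccr7 (both lower) and Ccr1 (higher) on the right.

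Ccr2 lies on chromosome 9 (124101950 to 124113557), as do the other 3 receptor genes. The WT libraries held 202, 208 and 230 CPM of its transcript and the ICOS KO libraries 156, 146 and 168 CPM. All ICOS KO libraries lay below all WT libraries, and the range within each group was smaller than the gap between the groups. The means were 213.5 ± 14.8 and 157 ± 11.04 CPM in WT and ICOS KO. The log2 fold change was -0.45 ± 0.10 (SE; 95% interval -0.66 to -0.23; edgeR adjusted p = 0.0319), which is 1.36-fold lower in ICOS KO. The call was kept under each of the 11 alternatives with all 6 libraries (adjusted p from 0.00241 to 0.0476) and, of the fits on 5 libraries, only in that without ICOS KO replicate 1 (0.0374). It was lost without WT replicate 1 (0.0945), 2 (0.135) or 3 (0.0869) and without ICOS KO replicate 2 (0.0944) or 3 (0.0745), with log2 fold changes from -0.50 to -0.39.

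Ccr4, the receptor gene for CCL17 and CCL22, lies at 114490316 to 114504916. The WT libraries held 66.6, 58.95 and 70.3 CPM of its transcript and the ICOS KO libraries 58.9, 48.5 and 49.7 CPM. The groups did not overlap, but the lowest WT and the highest ICOS KO library nearly met. The log2 fold change was -0.32 ± 0.12 (SE; edgeR adjusted p = 0.19), and its interval for the gene taken alone ran from -0.59 to -0.05. No alternative called it, with adjusted p from 0.0741 to 0.474.

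Ccr8 lies at 120092114 to 120094906. In the WT libraries there were 95.5, 82.4 and 87.8 CPM of its transcript and in the ICOS KO libraries 78.6, 67.8 and 80.7 CPM. Again the groups did not overlap, by a margin under the SD of either group. Its log2 fold change was -0.23 ± 0.11 (SE; 95% interval -0.47 to 0.02; edgeR adjusted p = 0.284), and -0.40 with the length and GC trend removed (adjusted p = 0.107). The Ccr8 to Ccr4 log2 ratio was 0.44 ± 0.106 in WT and 0.53 ± 0.147 in ICOS KO (exact permutation p = 0.5), with overlapping groups.

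Cxcr6, the receptor gene for CXCL16 and the most abundant of the 9, lies at 123806475 to 123811760. The WT libraries held 1618, 1646 and 1763 CPM of its transcript and the ICOS KO libraries 1734, 1599 and 1842 CPM. The groups overlapped, with the lowest library of all 6 in ICOS KO. On the log2 scale the fold change was 0.04 ± 0.08 (SE; 95% interval -0.13 to 0.22; edgeR adjusted p = 0.809), but -0.021 when libraries were scaled by their totals and -0.057 with the length and GC trend removed. Cxcr6 overlaps Fyco1, a gene on the other strand that stood at 20.5 ± 5.32 and 23.7 ± 8.16 CPM.

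Cxcr6 and Ccr2 share a stretch of chromosome 9 from Ccr9 to Ccr2 that holds several chemokine receptor genes. Such neighbours can be alike in sequence, so that reads may be divided between them. Whether this happened here was not tested. Ccr1 and Ccr2, which lie within 151.4 kb, moved in opposite directions. Ccr1, a receptor of CCL3 and CCL5, rose from 42.8, 38.4 and 51.0 CPM in WT to 74.2, 58.7 and 70.3 CPM in ICOS KO, without overlap (log2 fold change 0.62 ± 0.14; edgeR adjusted p = 0.0348). Ccr1 was no longer called when 1 of 4 libraries was absent (WT replicates 1 and 2, ICOS KO replicates 1 and 3) or when libraries were scaled by their totals (adjusted p up to 0.182). Between them, Ccr3, the eotaxin receptor, stood at 11.2 ± 1.66 and 17.2 ± 2.62 CPM, with separated groups (edgeR adjusted p = 0.107). Ccr9, the gut-homing receptor at the other end, stood at 1.41 ± 0.46 and 4.06 ± 0.979 CPM with separated groups (edgeR adjusted p = 0.068). Xcr1 stood at 35.1 ± 2.23 and 38.2 ± 2.22 CPM (edgeR adjusted p = 0.619). Among the tested chemokine receptor genes of this stretch Ccr2 was the only called gene that was lower, and Ccr1 the only one that was higher.

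Of 19 other chemokine receptor genes, 9 were tested, of which 1 was higher (Ccr1), 1 lower and 7 not called, with a median log2 fold change of 0.19. The lower one was Ccr7, the receptor that leads cells to lymph nodes, which fell from 98.7, 87.8 and 97.0 CPM in WT to 61.2, 56.4 and 69.6 CPM in ICOS KO, without overlap (log2 fold change -0.60 ± 0.11; edgeR adjusted p = 0.0142). Ccr7 was no longer called when WT replicate 1 or ICOS KO replicate 2 was absent (adjusted p up to 0.0879). Cxcr4 stood at 2.66 ± 0.495 and 1.54 ± 0.509 CPM (edgeR adjusted p = 0.315). Ccr6, Cxcr3 and Cx3cr1 were too low to be tested.

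Of 21 genes of the ligands of these receptors and integrins and of the proteases that shed CXCL16 or adhesion proteins, 14 were tested. None was called by edgeR at the adjusted threshold, and 4 of the 14 had an unadjusted p under 0.05, as had 2718 of all 13691 genes tested. Adam17, a shedding protease and the most abundant of them in CPM, stood at 105 ± 12.9 and 78.1 ± 18.2 CPM (edgeR adjusted p = 0.167, called without ICOS KO replicate 1 and by voom with quality weights, where it was as low as 0.022). Icam1, which encodes a ligand of LFA1, had 89.0 ± 10.3 against 79.7 ± 4.84 CPM (edgeR adjusted p = 0.457). The ligands of CCR4 were low, with Ccl22 at 5.85 ± 1.91 and 3.02 ± 2.28 CPM and Ccl17 at 3.19 ± 1.78 and 1.19 ± 0.432 CPM.

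Of 34 genes that activate integrins or tie them to actin, 28 were tested, of which 1 was higher, none lower and 27 not called (median log2 fold change -0.04). The called gene was Fyb, which encodes the adaptor ADAP that links receptor signals to integrins. Its mean rose from 44.8 ± 0.617 to 69.4 ± 9.83 CPM (edgeR adjusted p = 0.0187). Of the 6 fits on 5 libraries, only that without ICOS KO replicate 1 called it too (up to 0.105 in the others). Its partner Skap1 stood at 705 ± 24.0 and 817 ± 25.6 CPM (edgeR adjusted p = 0.17). Fermt3, which encodes the integrin activator kindlin 3, had 763 ± 80.9 against 728 ± 81.6 CPM (edgeR adjusted p = 0.76), and Tln1, which encodes talin, stood at 374 ± 42.2 and 326.5 ± 29.6 CPM (edgeR adjusted p = 0.334). Also not called, though with separated groups, were Rasgrp2 and Actn4 (edgeR adjusted p = 0.0582 and 0.0855). Rasgrp2 was higher in ICOS KO, at 5.69 ± 2.3 and 12.9 ± 2.45 CPM. Actn4 was lower, at 639 ± 71.7 and 463 ± 84.8 CPM.

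Of 33 genes that carry or end chemokine receptor signals, 32 were tested, of which 2 were higher, 1 lower and 29 not called (median log2 fold change -0.02). Rgs18, a regulator of G protein signalling, fell to 3.48 ± 0.783 CPM from 17.7 ± 2.19 CPM (log2 fold change -2.35 ± 0.23, edgeR adjusted p = 0.000231), a call kept under all 17 alternatives (adjusted p up to 0.00217). Rgs1, which dampens chemokine receptor signals, rose from 306 ± 42.8 to 436 ± 20.7 CPM (edgeR adjusted p = 0.0241), and Rac1, a GTPase of cell movement, from 524 ± 42.0 to 714 ± 52.1 CPM (edgeR adjusted p = 0.0241). Rgs1 was no longer called when WT replicate 1 or 2 or one of ICOS KO replicates 2 and 3 was absent (adjusted p up to 0.164) and Rac1 was called in 1 of the 6 fits on 5 libraries, that without ICOS KO replicate 1 (up to 0.0987 in the others). Gnai2, the main G protein of chemokine receptors in lymphocytes, stood at 976 ± 28.3 and 979 ± 46.2 CPM (edgeR adjusted p = 0.983). Rgs18 is also expressed by mast cells, of whose list 7 of 8 tested genes were lower as given above, and their part in its lower level was not tested.

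Of 25 other trafficking genes, 20 were tested, of which 2 were higher, 2 lower and 16 not called (median log2 fold change -0.07). Cd44, the hyaluronan receptor, fell from 276, 249.6 and 261 CPM in WT to 176, 153 and 155 CPM in ICOS KO, without overlap (log2 fold change -0.70 ± 0.10; edgeR adjusted p = 0.00218), and was called under all 17 alternatives (adjusted p up to 0.0237). Of the enzymes of selectin ligand synthesis, 2 were called, in opposite directions. Gcnt1, an enzyme that builds the branched glycan core, rose from 27.6 ± 0.959 to 45.5 ± 4.79 CPM (edgeR adjusted p = 0.0105), and Fut7, the fucosyltransferase that completes the ligand, fell from 13.8 ± 2.98 to 6.37 ± 1.82 CPM (edgeR adjusted p = 0.0355). Gcnt1 was no longer called when WT replicate 1 or 2 was absent (adjusted p up to 0.0685), and Fut7 was called in 1 of the 6 fits on 5 libraries, that without ICOS KO replicate 3 (up to 0.187 in the others). Selplg, which encodes the protein that carries these glycans, stood at 1207 ± 6.64 and 1234 ± 41.95 CPM (edgeR adjusted p = 0.844). Hrh4, a histamine receptor, rose from 0.123 ± 0.109 CPM, with 1 WT library at 0, to 1.67 ± 0.616 CPM (edgeR adjusted p = 0.0263). Its WT libraries held 0.210, 0.158 and 0 CPM, where 3 counts make 0.16 to 0.20 CPM, so that its WT level rests on few reads. Hrh4 was called in 1 of the 6 fits on 5 libraries, that without ICOS KO replicate 1 (up to 0.133 in the others). S1pr1, the receptor for leaving tissue, had 23.4 ± 2.32 against 21.4 ± 0.137 CPM (edgeR adjusted p = 0.631).

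The genes whose level over the 6 libraries followed that of Ccr2 most closely were Macroh2a2 (Pearson r = 0.995), Coro1b (0.994) and Mgst3 (0.990). For Itgb1 they were Arap1 (0.997), Myd88 (0.994) and Morc3 (0.993). These values describe 6 libraries that share the split between groups, out of 13691 genes searched. Of the 6 genes, Macroh2a2 alone was called by edgeR (adjusted p = 0.048), and it fell from 11.1 ± 1.39 to 5.88 ± 0.693 CPM. The call of Macroh2a2 was lost in all 6 fits that left out a library and with upper-quartile scaling, voom or no filter (adjusted p up to 0.161). Of the other 5, Mgst3 (edgeR adjusted p = 0.0584) was called lower under 3 of 17 alternatives, Morc3 (0.11) under 3 and Arap1 (0.139) under 1, with adjusted p down to 0.0112, 0.0313 and 0.0416, and Coro1b and Myd88 under none.

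**Figure D4:**
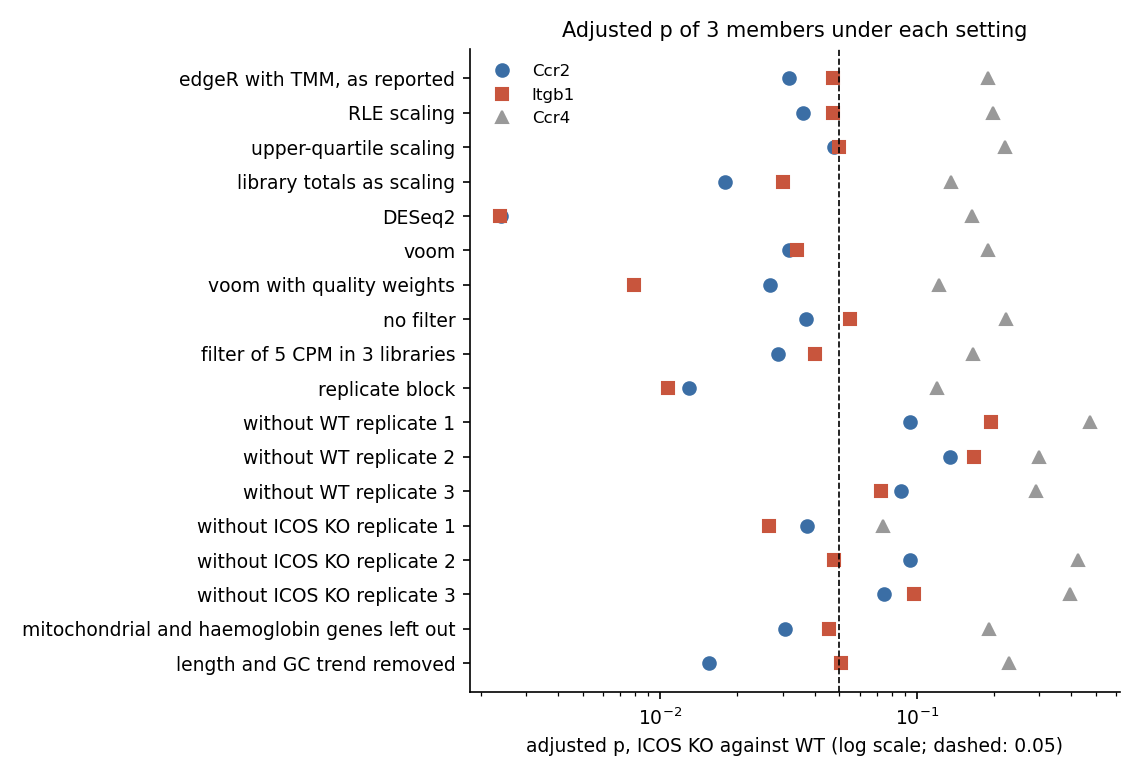
Adjusted p (log axis) of Ccr2, Itgb1 and Ccr4 for ICOS KO against WT in the edgeR fit with TMM factors (top line) and under the 17 alternatives, with 0.05 dashed. When any WT replicate or ICOS KO replicate 3 is absent, both Ccr2 and Itgb1 lie right of the line, while Ccr4 lies right of it in every setting.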

How the data were processed

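RNA of sorted and cultured mouse lung ILC2s was turned into cDNA with a low-input SMARTer kit, per the labels' protocols. The authors deposited estimated counts per gene for 6 libraries, 34.5% of them not whole (tolerance 0.001). Per the submitters' processing notes, STAR 2.7.8, Partek 10.0, DESeq2 and build mm10 were used. Not given in the sources used here are the annotation, the counter and its strand setting. No molecular identifiers are mentioned, so reads are not independent molecules. Libraries were matched to groups by library name.

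Rounded counts were filtered with filterByExpr, scaled by TMM and tested with edgeR 4.0.16 (R 4.3.3, limma 3.58.1; quasi-likelihood F test, no covariates, Benjamini-Hochberg over 13691 genes, threshold 0.05). SEs follow from the F statistic, and 95% intervals are for single genes. Partner ratios used counts plus 0.5 and an exact permutation test, and log2 CPM for correlations a prior count of 2. Pairs of libraries differed by a chi-square of at least 8.85 per degree of freedom. Positions and lengths come from GENCODE M21 (GRCm38), promoters from RefSeq (7 of 9 genes matched).

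The members, lists and ratios were chosen with earlier results of these data known. Named were the 9 genes, Icos, from each family or pathway list up to 5 called genes and the 2 most abundant, from each marker list up to 3 called genes and the most abundant, and 3 genes most like each called member. This gave 56 genes, on which 17 alternatives were run (other scalings, DESeq2 1.42.0, voom, no filter or a floor of 5 CPM in 3 libraries, a replicate block, the 6 fits on 5 libraries, a table without mitochondrial and haemoglobin genes, and removal of a length and GC trend, known for 97.8% of tested genes). Other genes given with values were chosen after seeing them and got no alternatives. Of the other chemokine receptor genes tested, 1 counted in its list is not reported here.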

Additional observations from a re-analysis of the deposited data

How the results depend on the processing

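Over all genes, edgeR called 451, and DESeq2 929, voom with quality weights 906, the fit with the replicate number as a block 784, and fits without 1 library 193 to 1090. Higher genes were 39.0% of calls (176 against 275 lower), but 28.2% when libraries were scaled by their totals (127 against 324). Of the 9 genes, 2 were called, 1 with no filter (Ccr2), 1 with the length and GC trend removed (Ccr2), and 0 to 3 without 1 library: 0 when a WT replicate or ICOS KO replicate 3 was absent, 1 without ICOS KO replicate 2 and 3 without ICOS KO replicate 1. Over the 17 alternatives the log2 fold change of Ccr2 ran from -0.51 to -0.39 and that of Itgb1 from -0.90 to -0.52. Directions turned for genes near 0 that were not called: Itgb7 (-0.051 scaled by library totals, and -0.056 to 0.092 without 1 library, below 0 when WT replicate 3 or one of ICOS KO replicates 1 and 3 was absent), Cxcr6 (-0.021 scaled by library totals, -0.057 with the length and GC trend taken out, and -0.011 to 0.099 without 1 library, below 0 without ICOS KO replicate 3), Fermt3 (0.043 with that trend removed, and -0.15 to 0.011 without 1 library, above 0 without WT replicate 1 or ICOS KO replicate 2) and Selplg (-0.032 scaled by library totals). The cause was not tested. The partner ratios were run only with pseudocounts of 0 and 10 counts and without each library in turn, where all 4 kept their direction. Without 1 library, Itga4 to its beta partners ran from 0.14 to 0.37, Itgal to Itgb2 from -0.14 to -0.08 and Ccr8 to Ccr4 from 0.01 to 0.15. Removal of the length and GC trend was not applied to the ratios. With that trend removed, Ccr8 (log2 fold change -0.395) fell more than Ccr4 (-0.266), while in the edgeR fit with TMM it fell less (-0.226 against -0.316). Libraries with the same replicate number correlated weakly in their deviations (r = 0.087, 0.078 and 0.064), each best with its own number, which is a hint from the data and not from the design; Ccr2 (adjusted p = 0.013) and Itgb1 (0.0107) were called in the block fit too. Itga4, with 226 to 382 counts per library, is measured least precisely.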
